A study of Mus musculus with 20 samples.

Results

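The genes described here are the secreted and membrane-bound ligands of axon guidance and their receptors, chosen by gene symbol alone. The rule took the semaphorins Sema3 to Sema7, the plexins and neuropilins, the ephrins and Eph receptors, Slit1 to Slit3, Robo1 to Robo4, the netrins, Dcc and the Unc5 genes, and it matched 69 of the 35975 genes in the tables. These were 20 semaphorin ligands, 11 plexin and neuropilin receptors, 8 ephrin ligands, 14 Eph receptors, 3 Slit ligands, 4 Robo receptors, 4 netrin ligands and 5 netrin receptors.

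RNA came from ES-E14TG2a, a line of mouse embryonic stem cells, in a WT and a TKO version. Both were grown as stem cells in medium with serum and leukemia inhibitory factor (D0) and sampled again at D2, D4, D6 and D8 of differentiation towards neural progenitor cells (NPC) on laminin, in the serum-free medium N2B27. The 10 groups of genotype and day held 2 libraries each, labelled as biological replicates, so that p-values measure the spread between these 20 libraries. What TKO stands for is not spelled out in the labels, which also do not say how the cells were edited or whether they are a single clone. The D0 cells of both genotypes are the only ones that were not put into differentiation medium, and no group was kept in stem cell medium to D8.

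Axon guidance molecules steer growing axons and migrating cells by attraction and repulsion at the cell surface. Semaphorins act through plexins, often with a neuropilin as co-receptor, ephrins signal to Eph receptors on a touching cell and also receive signals back, Slits repel through Robo receptors, and netrins attract through Dcc or repel through Unc5 receptors. In the developing nervous system the same genes mark particular progenitor zones and neuron classes, and several of them are also used outside it, in epithelia, vessels and stem cells.

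Totals per library ran from 26015282 to 38074768 estimated counts. Levels are in CPM, counts per 1e+06 after TMM scaling, and are given for replicate 1 and replicate 2 in that order. A member is called higher or lower where the edgeR quasi-likelihood test, adjusted over the 18555 genes tested, gave an adjusted p under 0.05, and its log2 change is given ± SE. Of the 69 members 68 were tested, and Epha6, with 18 counts in all 20 libraries together, was not. Transcripts of Dnmt1 and Dnmt3a, both DNA methyltransferases, were lower in TKO at all 5 days (log2 fold changes of Dnmt1 from -2.59 to -1.86), and Dnmt3b was lower from D0 to D6 and higher at D8 (0.92).

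In WT the guidance genes took a growing part of the library as the cells differentiated, from 0.147% and 0.155% of counts at D0 to 0.5998% and 0.5981% at D8. In TKO they took 0.157% and 0.165% at D0 and reached their highest share at D6, with 0.304% and 0.319%, before standing at 0.246% and 0.256% at D8. The genotypes thus lay close together at D0, D2 and D4 in this summed share, and at D8 the TKO libraries were below those of WT. The highest mean level of a member fell on D8 for 39 members in WT and for 13 in TKO, and on D6 for 13 in WT and for 33 in TKO. Of all genes tested, 29.1% in WT and 13.6% in TKO were highest at D8, and 15.4% and 24.9% at D6. In bulk RNA, fewer cells of a type and less RNA per cell cannot be told apart.

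**Figure D1:**
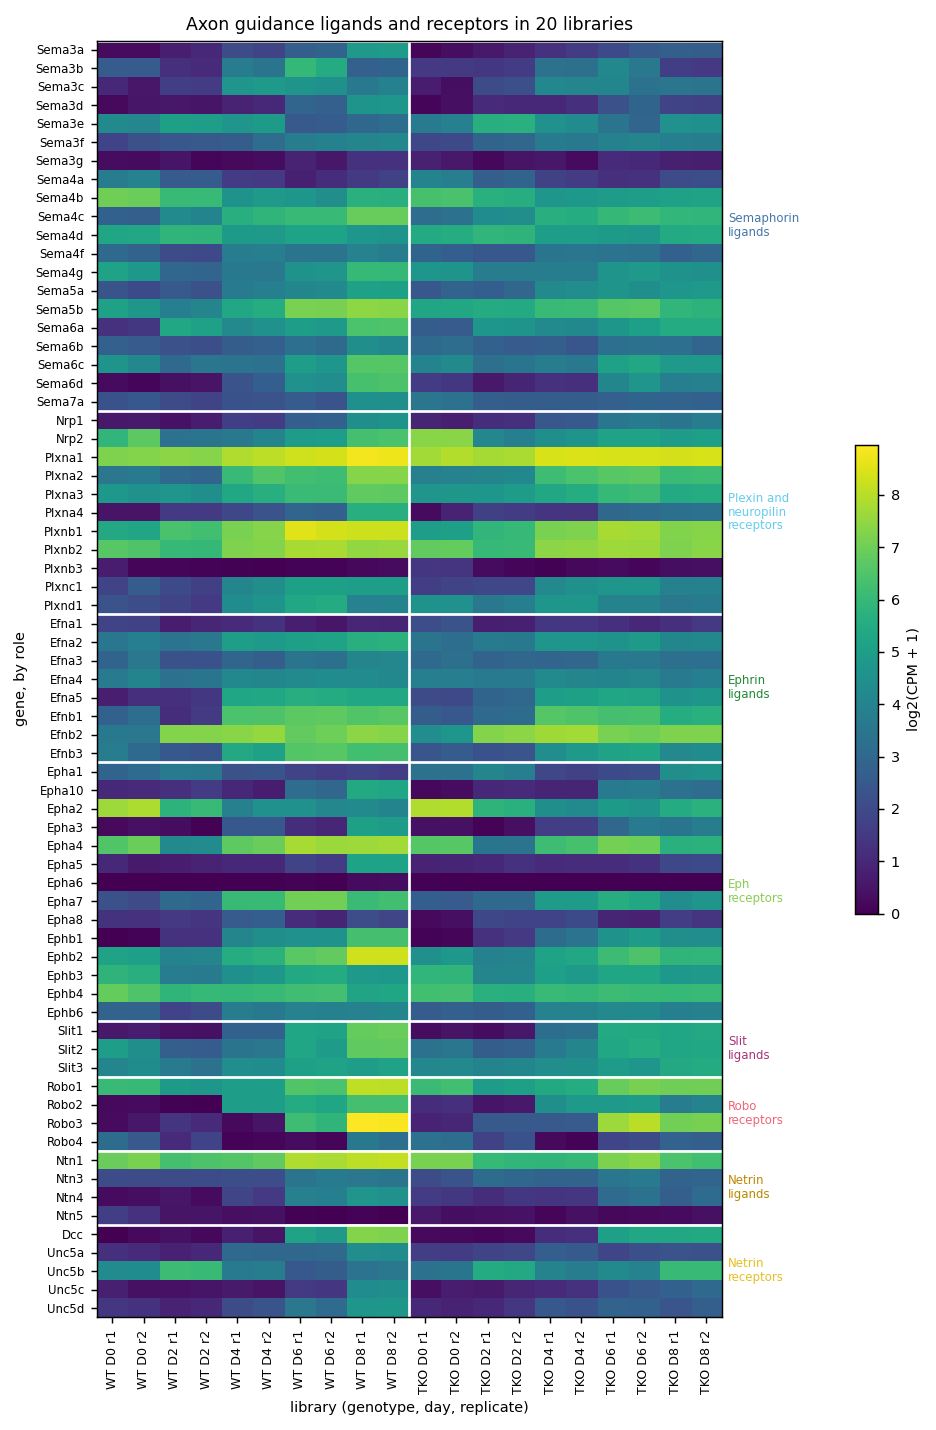
Level of each of the 69 members (rows, grouped by role) in each of the 20 libraries (columns), as log2(CPM + 1) from dark (0) to yellow. The WT columns brighten towards D8 for most members, for example Robo3, Dcc and Slit1, while the TKO columns at D8 are darker than those of WT for 52 members called lower.

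From D0 to D8 in WT, 54 of the 68 tested members were called higher and 11 lower (95.6%, beside 76.8% of all genes called, 37.8% higher and 39% lower), with a median log2 fold change of 2.28 over the members and 0.004 over all genes. The rise did not begin at once. At D2, 17 members were higher than at D0 and 33 lower (54.7% of all genes called, 25.8% higher and 28.9% lower), at D4 39 were higher and 19 lower (64.8% of all genes, 33.1% and 31.8%), and at D6 50 were higher and 14 lower (71.1% of all genes, 35.2% and 35.9%). TKO gave 23 higher and 23 lower at D2 (53.6% of all genes called, 26.6% higher and 26.9% lower), 42 and 18 at D4 (66.5%, 34.4% and 32.1%), 49 and 13 at D6 (71.9%, 36.1% and 35.8%), and 46 and 12 at D8 (65.1%, 34.2% and 30.8%). These counts share the D0 libraries of their genotype.

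The log2 fold changes from D0 to D8 in WT were largest for Sema6d (9.14), Sema3a (7.19) and Sema3d (6.30) among the semaphorins, and for Plxna4 (6.97), Nrp1 (5.33) and Plxna2 (3.83) among their receptors. Efna5 (5.29), Efnb2 (3.91) and Efnb1 (3.72) led the ephrins, and Ephb1, Epha3 (6.98) and Epha5 (5.51) the Eph receptors. Robo3 (10.46), Robo2 (8.77) and Slit1 (7.61) led the Slit and Robo genes, and Dcc (10.83), Ntn4 (6.68), Unc5c (5.25) and Unc5a (3.99) the netrins and their receptors. The fitted changes of these genes were smaller in TKO, where Robo3 gave 7.2, Dcc 7.98, Robo2 3.42, Sema6d 2.87 and Slit1 6.92. The interaction of genotype with this change passed for Robo3 (-3.26), Dcc (-2.85), Robo2 (-5.35) and Sema6d (-6.27), while for Slit1 it was -0.69 (adjusted p = 0.178).

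By the number of members called, TKO and WT differed most at D8. There 52 members were lower in TKO and 10 higher, 91.2% of those tested, where 67.5% of all genes were called, 31.8% lower and 35.8% higher. The median log2 fold change of the members was -1.10, and that of all genes 0.038. The 6 that did not pass were Sema3c, Sema3f, Plxnb3, Efnb2, Ephb3 and Ephb6. In a fit of the D8 groups alone some of these were called lower in TKO. They were Efnb2 (-0.17, adjusted p = 0.00112), Sema3f (-0.34, adjusted p = 0.00392) and Sema3c (-0.34, adjusted p = 0.023). On earlier days the calls went both ways. At D0, 22 members were higher in TKO and 17 lower (39.3% of all genes called, 19.4% higher and 19.9% lower), at D2 28 and 8 (35.3% of all genes, 18.4% and 16.9%), at D4 17 and 17 (28.3% of all genes, 15.1% and 13.2%), and at D6 19 and 23 (41.3% of all genes, 20.9% and 20.3%). No member was called in one direction at all 5 days, where few of all genes were either (2.91% higher and 1.92% lower). In changing directions 9 members (13.2%) were called at every day, beside 6.86% of all genes called at every day in any direction. At D2, where 28 members were higher and 8 lower, all 13 endoderm markers were also higher in TKO, with sums of 162 and 159 CPM in WT and 986 and 1196 in TKO and none at 0, and their part was not tested. The D4 count is the least firm, since 21 members in place of 34 were called without TKO D4 replicate 1, 21 without TKO D4 replicate 2, and 20 in counts made from length-scaled TPM. Comparisons of TKO with WT at D8 and of D8 with D0 or D6 in WT share the WT libraries of D8.

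**Figure D2:**
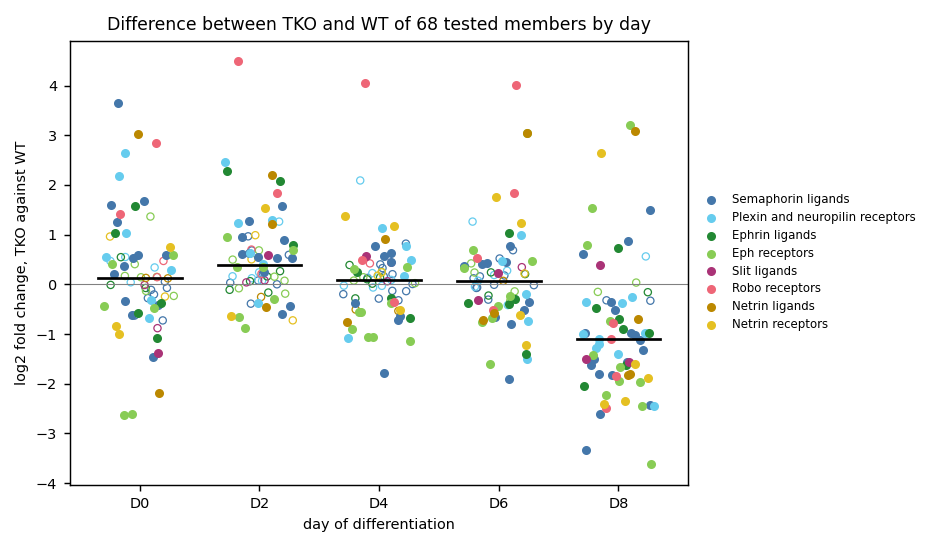
Log2 fold change of TKO against WT (vertical axis) for the 68 tested members at each day (horizontal axis), coloured by role, filled where called and open where not, with a black bar at the median. The medians lie near 0 up to D6 and at -1.10 at D8, where 52 of the 68 points are called lower.

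The difference at D8 moved together with markers of cell type. Summed over 14 neuron markers, the 2 WT libraries at D8 had 5525 and 5612 CPM and the 2 TKO libraries 1541 and 1513, with 13 of 14 markers lower in TKO and none at 0. The 15 neural progenitor markers stood at 3822 and 3895 CPM in WT and 1617 and 1612 in TKO, with 13 lower. Progenitor markers, the labelled fate, were detected in both genotypes at D8 beside neuron markers. The same list already summed to 1282 and 1305 CPM in WT and 1070 and 1056 in TKO at D0. Its detection at D8 therefore does not by itself show that fate. Of 12 pluripotency markers all were higher in TKO, at 85 and 58.8 CPM in WT and 1318 and 1241 in TKO, and of 11 markers of epithelium and surface ectoderm 10 were higher, at 293 and 294 CPM against 1290 and 1242. Endothelial markers were at 17.5 and 17.9 CPM in WT and 81.3 and 84.8 in TKO, with 6 of 9 tested higher and Emcn at 0 in both genotypes. At D6, by contrast, the neuron markers stood at 1114 and 1011 CPM in WT and at 1965 and 2593 in TKO, with 13 of 14 higher in TKO. The progenitor markers did not share this order at D6, with sums of 4231 and 4088 CPM in WT and 3088 and 3252 in TKO. Pluripotency markers at D6 stood at 41.2 and 33.6 CPM in WT and 238 and 181 in TKO, and epithelial markers at 168 and 159 against 500 and 444. In stem cells at D0 the endothelial list summed to 123 and 137 CPM in WT and 130 and 131 in TKO. The epithelial list there summed to 756 and 675 CPM in WT and 792 and 768 in TKO. High sums of these lists thus do not mark endothelial or epithelial cells alone. What part these cell types have in the guidance gene values was not tested.

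The secreted class 3 semaphorins, which signal through neuropilins and plexin A receptors, split by member. Sema3a, a repellent of sensory and cortical axons, had 0.191 and 0.195 CPM in WT at D0, 27.7 and 29.7 in WT at D8 and 5.49 and 5.24 in TKO at D8. Neither D8 group overlapped the other or the D0 group, and Sema3a was higher in WT at D8 than at D0 (log2 change 7.19 ± 0.30, adjusted p = 2.13e-13) and lower in TKO than in WT at D8 (log2 change -2.42 ± 0.19, adjusted p = 4.3e-09). Sema3d gave 0.159 and 0.455 CPM in WT at D0, 23.8 and 25.0 in WT at D8 and 2.55 and 2.27 in TKO at D8. It had the largest difference between the genotypes at D8 among the semaphorins (log2 change -3.34 ± 0.24, adjusted p = 1.4e-09), with a change from D0 to D8 in WT of 6.30 on the log2 scale. Sema3e, a ligand that can act directly on Plxnd1, went the other way. It had 6.91 and 8.51 CPM in WT and 21.9 and 21.6 in TKO at D8 (log2 change 1.5 ± 0.14, adjusted p = 5.35e-08). Its course crossed several times, with TKO lower at D0 (-0.42) and D4 (-0.37) and higher at D2 (0.63), D6 (0.77) and D8. The D0 call of Sema3e was lost without WT D0 replicate 1 (-0.37, adjusted p = 0.0962) or TKO D0 replicate 1 (-0.33, adjusted p = 0.181).

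Sema3b and Sema3c peaked before D8. Sema3b reached 61.4 and 45.2 CPM in WT at D6 and 17.3 and 11.1 in TKO (log2 change -1.90 ± 0.17, adjusted p = 1.04e-07), and at D8 it had 5.75 and 6.44 CPM in WT and 2.17 and 1.78 in TKO. It was also lower in TKO at D0, at 1.78 and 1.87 CPM against 5.17 and 4.91 (log2 change -1.47 ± 0.24, adjusted p = 0.000137). Sema3c was lower in TKO at D4 (-0.63) and D6 (-0.80), and at D8 its log2 fold change was -0.33 (adjusted p = 0.166). Sema3f was higher in TKO at D2 and D4 (0.55 and 0.76), and Sema3g stayed below 2 CPM in every group mean.

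Among the transmembrane semaphorins Sema6d (chr2:124089969-124667770, plus strand, GRCm38) showed the widest range. It had 0.191 and 0.0975 CPM in WT at D0, 3.91 and 5.45 at D4, 22.1 and 20.2 at D6 and 81.1 and 86.8 at D8 (log2 change 9.14 ± 0.28, adjusted p = 3.24e-15, D8 against D0). In TKO it had 16.3 and 24.3 CPM at D6, where the test found no difference from WT, and 13.2 and 14.1 at D8 (log2 change -2.62 ± 0.15, adjusted p = 8.99e-11). Sema6c, of the same class, had 96.9 and 95.8 CPM in WT and 27.0 and 27.5 in TKO at D8 (log2 change -1.82 ± 0.15, adjusted p = 5.49e-09), after being higher in TKO at D6 (0.40). Sema6a, which acts with plexin A2 and A4, was higher in TKO at D0, at 5.19 and 4.98 CPM against 1.40 and 1.75 (log2 change 1.69 ± 0.20, adjusted p = 4.59e-06), and lower at D2 (-0.60) and D8 (-0.98). Sema6b was higher at D0 and D2 (0.54 and 0.62) and lower at D8 (-1.32), and its D0 call was lost without WT D0 replicate 2 (0.44, adjusted p = 0.106) or TKO D0 replicate 2 (0.44, adjusted p = 0.122).

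Sema5b and Sema4c were the semaphorins with the most RNA per length over all libraries, at a mean of 39.0 and 28.7 TPM. Sema5b had 171 and 165 CPM in WT at D8 and 58.9 and 54.5 in TKO (log2 change -1.57 ± 0.094, adjusted p = 1.03e-10). TKO stood above WT at D0, D2 and D4, with the largest rise over WT at D2 (45.2 and 43.5 against 13.7 and 15.8 CPM, log2 change 1.58 ± 0.11, adjusted p = 5.83e-09), and lower at D6 (-0.51). The D0 call of Sema5b was lost without WT D0 replicate 2 (0.18, adjusted p = 0.13) or TKO D0 replicate 2 (0.33, adjusted p = 0.0619). Sema4c, which binds plexin B2, had 117 and 115 CPM in WT and 59.7 and 58.0 in TKO at D8 (log2 change -0.98 ± 0.08, adjusted p = 5.06e-09), and was higher in TKO at D0 (0.59) and D2 (0.25). Sema4g likewise turned from higher at D2 (0.90) to lower at D8 (-1.49). Sema7a, a membrane-anchored semaphorin without a transmembrane domain, was higher in TKO on each day from D0 (10.5 and 9.48 against 3.83 and 4.55 CPM, log2 change 1.26 ± 0.14, adjusted p = 1.21e-06) to D6 (0.45). At D8 it was lower, with 6.22 and 5.88 CPM in TKO and 21.3 and 21.1 in WT (log2 change -1.81 ± 0.13, adjusted p = 7.64e-10).

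Other transmembrane semaphorins differed in their course. Sema4b, the second of all members per length at D0 in WT, went from 129 and 121 CPM at D0 to 25.3 and 20.3 at D6 and 50.3 and 48.6 at D8, and was lower in TKO at D0 (-0.61), D2 (-0.44) and D8 (-0.51) and higher at D6 (0.43). Sema4d, a ligand of plexin B1, had 24.9 and 23.6 CPM in WT and 43.5 and 45.1 in TKO at D8 (log2 change 0.87 ± 0.062, adjusted p = 1.07e-09), having been lower in TKO at D6 (-0.36). Sema4a was called higher at D8 at low levels, with 1.91 and 2.43 CPM in WT and 3.15 and 3.46 in TKO (0.61), and counts made from length-scaled TPM gave 0.25 with an adjusted p of 0.448. It was also lost without WT D8 replicate 1 (adjusted p = 0.101) or TKO D8 replicate 2 (adjusted p = 0.0629). Sema4f was lower in TKO at D8 (-1.11). Sema5a was higher in TKO from D0 to D6 (log2 fold changes from 0.36 to 0.60) and lower at D8 (25.4 and 27.2 against 33.7 and 33.5 CPM, log2 change -0.35 ± 0.14, adjusted p = 0.0288). With length-scaled TPM the D8 value of Sema5a was 0.04 (adjusted p = 0.89), and leaving out any 1 of the D8 libraries lost the call, with adjusted p from 0.0641 to 0.156. Its D0 call was lost without WT D0 replicate 2 (0.40, adjusted p = 0.172) or TKO D0 replicate 2 (0.33, adjusted p = 0.276).

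Of the 11 plexin and neuropilin receptors 9 were higher in WT at D8 than at D0 and none was lower (37.8% and 39% of all genes). Nrp2 and Plxnb3 did not pass, and were called lower without WT D0 replicate 1 (Nrp2, -0.37, adjusted p = 0.00799) or without WT D0 replicate 2 (Plxnb3, -1.77, adjusted p = 0.0159). In TKO against WT at D8, 10 were lower, none was higher and Plxnb3 did not pass, where 31.8% of all genes were lower and 35.8% higher. Nrp1, the co-receptor for Sema3a and for vascular endothelial growth factor, had 0.542 and 0.552 CPM in WT at D0 and 20.9 and 23.5 at D8 (log2 change 5.33 ± 0.20, adjusted p = 5.53e-14). In TKO it had 10.4 and 12.1 CPM at D6, above the 5.45 and 5.82 of WT (log2 change 1.0 ± 0.15, adjusted p = 4.5e-05), and 9.93 and 12.7 at D8, below WT (log2 change -0.97 ± 0.14, adjusted p = 8.13e-06). Nrp2, the co-receptor for Sema3f, had a different course. WT held 59.1 and 103 CPM at D0, 9.33 and 9.99 at D2 and 79.0 and 83.1 at D8, while TKO held 166 and 165 at D0, 16.6 and 13.4 at D2 and 29.5 and 32.0 at D8. Nrp2 was thus higher in TKO at D0 (log2 change 1.03 ± 0.17, adjusted p = 0.000116) and lower at D8 (log2 change -1.40 ± 0.18, adjusted p = 1.74e-06). The 2 WT libraries at D0 stood far apart for Nrp2, and both lay below both TKO libraries.

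Plexin A genes, the signalling partners of neuropilins, all gave lower values in TKO at D8. Plxna4 had 0.383 and 0.390 CPM in WT at D0, 48.6 and 49.1 in WT at D8 and 8.56 and 9.40 in TKO at D8, the largest D8 difference of the plexins (log2 change -2.44 ± 0.17, adjusted p = 9.38e-10). Plxna3 had 109.7 and 107 CPM in WT and 43.9 and 45.9 in TKO at D8 (log2 change -1.27 ± 0.10, adjusted p = 5.52e-09) and was not called at any earlier day. Plxna2 had 161 and 161 CPM in WT and 68.5 and 71.6 in TKO at D8 (log2 change -1.2 ± 0.11, adjusted p = 1.88e-08), and was higher in TKO at D2 (1.24) and D6 (0.47). Plxna1 was the most abundant plexin per length, with a mean of 58.2 TPM over all libraries. TKO stood above WT at D0 (211 and 240.0 against 150.4 and 158 CPM, log2 change 0.55 ± 0.067, adjusted p = 5.5e-06), D2 and D4, and lower at D8 (334 and 341 against 445 and 427 CPM, log2 change -0.37 ± 0.066, adjusted p = 8.5e-05).

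Among the other plexins Plxnd1 (chr6:115954811-115995005, minus strand, GRCm38), the receptor for Sema3e and a gene of blood vessel patterning, had the largest difference at D0. It stood at 3.86 and 3.38 CPM in WT and 23.0 and 22.3 in TKO (log2 change 2.64 ± 0.14, adjusted p = 1.43e-10), and the difference was of like size at D2 (2.47). At D4 both genotypes had come together, with 19.7 and 23.8 CPM in WT and 25.0 and 25.9 in TKO. At D6 WT stood at 40.0 and 45.2 and TKO at 15.1 and 15.2 (log2 change -1.5 ± 0.11, adjusted p = 1.31e-08). The small difference at D8 (-0.36) was -0.08 with an adjusted p of 0.802 in counts from length-scaled TPM, and did not pass without WT D8 replicate 2 (-0.33, adjusted p = 0.0762) or TKO D8 replicate 1 (-0.27, adjusted p = 0.131). Plxnb1, a receptor for Sema4d, was lower in TKO at D0, D2, D6 and D8 and had 311 and 312 CPM in WT and 152 and 159 in TKO at D8 (log2 change -1.0 ± 0.073, adjusted p = 1.21e-09). Plxnb2 changed less, from 0.29 at D0 to -0.25 at D8, with 183 and 189 CPM in WT and 149 and 164 in TKO at D8 (adjusted p = 0.0503 without TKO D8 replicate 1). Its D0 value was 0.15 (adjusted p = 0.179) in counts from length-scaled TPM. Plxnc1 was lower at D8 (-1.11), and Plxnb3, at most 1.67 and 1.54 CPM, was called only at D0 (2.17), and not without WT D0 replicate 2 (1.40, adjusted p = 0.0556).

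Ephrins are anchored to the membrane by a lipid (ephrin A) or span it (ephrin B). Of the 8, 7 were higher in WT at D8 than at D0 (37.8% of all genes), and at D8 6 were lower in TKO (31.8% of all genes), Efna1 was higher and Efnb2 did not pass. The WT call of Efna4 was lost without WT D0 replicate 1 (0.21, adjusted p = 0.116) or WT D8 replicate 1 (0.30, adjusted p = 0.0653). Efnb2, the most abundant ephrin per length, had 11.2 and 10.7 CPM in WT at D0, 156 and 157 at D2 and 169.7 and 160.2 at D8 (log2 change 3.91 ± 0.10, adjusted p = 4.32e-16). TKO held 19.9 and 25.0 at D0, above WT (log2 change 1.03 ± 0.11, adjusted p = 8.16e-07), and 148 and 147 at D8, where the log2 fold change was -0.16 (adjusted p = 0.107). Efnb2 was thus the ephrin whose level was nearest between the genotypes at D8. Efnb3, a midline repellent of the spinal cord, was lower in TKO at every day but D2. It had 12.4 and 7.37 CPM in WT and 4.28 and 5.12 in TKO at D0 (log2 change -1.08 ± 0.21, adjusted p = 0.000618), 93.6 and 99.5 against 35.1 and 38.5 at D6 (-1.39), and 74.7 and 79.2 against 17.7 and 19.6 at D8 (log2 change -2.04 ± 0.16, adjusted p = 3.35e-09).

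Efnb1 fell to 1.24 and 1.86 CPM in WT at D2, while TKO held 7.37 and 8.06 (log2 change 2.27 ± 0.18, adjusted p = 5.75e-08). At D4 the genotypes had 85.6 and 87.8 against 96.0 and 90.1 CPM, and at D8 91.9 and 99.4 against 46.3 and 50.4 (log2 change -0.98 ± 0.099, adjusted p = 8.49e-08). Its lower value in TKO at D0 (-0.57) was no longer called without WT D0 replicate 2 (-0.29, adjusted p = 0.154), without TKO D0 replicate 2 (-0.47, adjusted p = 0.0731) or in a fit of the D0 groups alone (-0.57, adjusted p = 0.0906). Efna5, a repellent in the retinal map, had 0.702 and 1.33 CPM in WT and 3.13 and 2.97 in TKO at D0 (log2 change 1.59 ± 0.19, adjusted p = 5.24e-06) and was lower in TKO from D4 on, by a log2 fold change of -0.71 at D8. In WT it rose to 39.8 and 40.2 CPM (log2 change 5.29 ± 0.14, adjusted p = 5.81e-16). Efna2 had 49.9 and 52.1 CPM in WT and 16.2 and 17.1 in TKO at D8 (log2 change -1.61 ± 0.11, adjusted p = 7.64e-10). Efna4 (-0.48) and Efna3 (-0.90) differed less at D8, and Efna3 shares 10.5% of its 31-base sequences with other genes, which makes its count less certain. Efna1 stayed below 4 CPM, and its higher value in TKO at D8 (0.74) did not pass in DESeq2 (0.72, adjusted p = 0.0933), nor without WT D8 replicate 1, WT D8 replicate 2 or TKO D8 replicate 2 (adjusted p = 0.0564, 0.0881 and 0.195).

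The Eph receptors, receptor tyrosine kinases and the ephrins' partners, held some of the members higher in TKO at D8 as well as some of those that went down furthest. At D8, 8 of the 13 tested were lower in TKO, 3 were higher and 2 did not pass, beside 31.8% of all genes lower and 35.8% higher. Epha5 (chr5:84054761-84417382, minus strand, GRCm38) had 2.61 and 1.99 CPM in WT at D6 and 35.9 and 36.1 at D8, against 2.83 and 3.0 in TKO at D8. This was the largest difference between the genotypes at D8 among all members (log2 change -3.62 ± 0.17, adjusted p = 6.95e-12). Ephb2, a receptor in commissural and midline guidance, had 34.4 and 32.3 CPM in WT at D0, 316 and 316 in WT at D8 and 57.7 and 58.4 in TKO at D8 (log2 change -2.45 ± 0.10, adjusted p = 1.36e-12). Its smaller difference at D0 (-0.47) did not pass without TKO D0 replicate 1 (adjusted p = 0.0572). Ephb1, which guides retinal axons at the chiasm, was almost absent from WT stem cells, with 2 counts in both D0 libraries together and 5378 at D8, a ratio of 2940 after division by library totals with a 95% counting interval from 813 to 24300. Its levels at D8 were 78.8 and 78.1 CPM in WT and 20.3 and 20.2 in TKO (log2 change -1.95 ± 0.13, adjusted p = 4.74e-10).

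Epha3 and Epha10 stood higher in TKO than in WT at D6. Epha3 had 1.27 and 0.960 CPM in WT and 6.81 and 11.8 in TKO at D6 (log2 change 3.04 ± 0.29, adjusted p = 2.74e-07), and 33.0 and 29.2 against 10.2 and 13.0 at D8 (log2 change -1.42 ± 0.22, adjusted p = 1.84e-05). Epha10, a receptor that lacks kinase activity, had 8.21 and 6.85 CPM in WT and 11.9 and 12.5 in TKO at D6 (0.69), and 42.3 and 38.6 against 9.09 and 8.15 at D8 (-2.23). The order of the genotypes was thus reversed between the last 2 days for both receptors. Epha4, the most abundant Eph receptor per length over all libraries and a receptor for both ephrin classes, was lower in TKO from D2 to D8. It had 17.9 and 19.1 CPM in WT at D2 and 10.2 and 10.0 in TKO (-0.87), and 200.5 and 207 against 51.2 and 52.6 at D8 (log2 change -1.97 ± 0.10, adjusted p = 2.33e-11). Epha7 had 131 and 131 CPM in WT and 46.4 and 39.8 in TKO at D6 (log2 change -1.60 ± 0.089, adjusted p = 2.32e-10) and a like difference at D8 (-1.66). Its higher value in TKO at D0 (0.58) did not pass without WT D0 replicate 2 (0.47, adjusted p = 0.058) or in a fit of the D0 groups alone (0.59, adjusted p = 0.055).

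Epha2 was the member with most RNA per length in stem cells, at 73.3 and 89.0 TPM in WT and 82.0 and 85.6 in TKO. It fell in WT from 201 and 233 CPM at D0 to 18.1 and 15.4 at D8 (log2 change -3.69 ± 0.17, adjusted p = 1.13e-12), and in TKO from 238 and 241 to 28.4 and 24.0 at D6 and 44.4 and 52.5 at D8, above WT (log2 change 1.53 ± 0.17, adjusted p = 3.68e-07). Epha1, an epithelial Eph receptor, had 2.62 and 2.10 CPM in WT and 20.7 and 23.1 in TKO at D8 (log2 change 3.21 ± 0.15, adjusted p = 4.08e-12). TKO had 3.07 and 3.40 CPM at D6, so that the TKO libraries at D8 lay above those of every other day. Ephb4, best known from veins, had 36.3 and 38.4 CPM in WT and 62.8 and 66.1 in TKO at D8 (log2 change 0.79 ± 0.09, adjusted p = 4.35e-07) and was lower in TKO at D0 (-0.43) and D2 (-0.30). These 3 receptors were higher in TKO at D8 in the same libraries in which the summed epithelial, pluripotency and endothelial markers were higher. The epithelial and endothelial lists were also expressed in stem cells at D0, and the part of these markers was not tested. Ephb3 and Ephb6 did not pass at D8, with log2 fold changes of 0.04 (adjusted p = 0.727) and -0.15 (adjusted p = 0.194). Epha8 stayed at or below 5.15 CPM in every group mean and Epha6 at or below 0.22 CPM. Epha6, which was not tested, had 15 counts in WT D8 and 0 in TKO D8. With TKO set to a floor of 3 counts over both libraries it was 5.07-fold lower, a value without a counting interval.

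Slits are large secreted repellents of the midline. Slit1 (chr19:41600257-41743665, minus strand, GRCm38), found in the nervous system, had 0.542 and 0.650 CPM in WT at D0, 38.1 and 35.2 at D6 and 113 and 121 at D8 (log2 change 7.61 ± 0.13, adjusted p = 1.01e-17). In TKO it was higher than in WT at D4 (8.50 and 8.92 against 5.86 and 5.82 CPM, log2 change 0.57 ± 0.11, adjusted p = 0.000558) and D6 (0.22), and at D8 it had 37.4 and 41.3 CPM (log2 change -1.57 ± 0.081, adjusted p = 1.55e-11). Slit2 had 109 and 109.8 CPM in WT and 37.4 and 39.9 in TKO at D8 (log2 change -1.5 ± 0.15, adjusted p = 6.67e-08). It was the only Slit called at D0, with 31.2 and 20.8 CPM in WT and 9.44 and 10.6 in TKO (log2 change -1.38 ± 0.17, adjusted p = 6.27e-06). Slit3 had 30.7 and 34.5 CPM in WT and 41.0 and 44.4 in TKO at D8 (log2 change 0.39 ± 0.10, adjusted p = 0.00254), the reverse of the other Slits, but counts from length-scaled TPM gave 0.08 (adjusted p = 0.528).

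All 4 Robo receptors were higher in WT at D8 than at D0 and lower in TKO than in WT at D8, beside 37.8% of all genes higher in the first comparison and 31.8% lower in the second. Robo3 is a divergent Robo of commissural neurons that keeps them from responding to Slit before they cross the midline. It was the member with most RNA per length in WT at D8, at 279 and 269 TPM. Robo3 covers all its transcripts here, and 4 annotated as retaining an intron or as targets of nonsense-mediated decay held 56.9% and 54.1% of counts. Its WT libraries had 0.191 and 0.487 CPM at D0, 0.178 and 0.398 at D4, 70.9 and 57.0 at D6 and 498 and 464 at D8 (log2 change 10.46 ± 0.22, adjusted p = 5.23e-17). The TKO libraries had 4.66 and 4.92 CPM at D4, above WT (log2 change 4.04 ± 0.34, adjusted p = 1.36e-07), 199.9 and 259.9 at D6, above WT (log2 change 1.84 ± 0.12, adjusted p = 1.66e-09), and 132 and 137 at D8, below WT (log2 change -1.84 ± 0.12, adjusted p = 2.18e-10). At D2 Robo3 had 41 and 37 estimated counts in WT and 135 and 116 in TKO. At D4 it had 6 and 13 in WT, fewer than at D2, and 163 and 149 in TKO. Robo3 thus stood higher in TKO before D8 and ended lower. The sum of neuron markers was higher in TKO at D6, whereas at D4 it stood at 448 and 477 CPM in WT and 434 and 417 in TKO. The part of neuron markers in the Robo3 values was not tested.

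Robo1 and Robo2, the main Slit receptors, differed in timing. Robo1 had 66.8 and 63.0 CPM in WT at D0 and 276 and 269 at D8 (log2 change 2.07 ± 0.081, adjusted p = 7.85e-14). TKO was higher at D4 (0.50) and D6 (117 and 138 against 91.0 and 85.7 CPM, log2 change 0.53 ± 0.079, adjusted p = 3.81e-05), and lower at D8 (128 and 128 CPM, log2 change -1.09 ± 0.078, adjusted p = 9.82e-10). Robo2 had 5 and 6 counts in the WT libraries at D0 and 36 and 37 in those of TKO (log2 change 2.85 ± 0.39, adjusted p = 1.88e-05). At D8 it had 78.8 and 79.3 CPM in WT and 12.7 and 15.3 in TKO (log2 change -2.49 ± 0.12, adjusted p = 4.13e-12). Its order was therefore reversed between stem cells, where TKO had more at a very low level, and D8. Robo4, a receptor of endothelial cells, had 8.00 and 4.65 CPM in WT at D0, 0.0592 and 0.123 at D4 and 11.3 and 8.66 at D8. Its higher value in WT at D8 than at D0 (0.66) did not pass in DESeq2 (0.67, adjusted p = 0.0875) or in a fit of the compared groups alone (0.67, adjusted p = 0.0781), nor without WT D0 replicate 2 (0.31, adjusted p = 0.353) or WT D8 replicate 1 (0.43, adjusted p = 0.278). The lower Robo4 value of TKO at D8 (-0.79) did not pass without WT D8 replicate 1, TKO D8 replicate 1 or TKO D8 replicate 2 (adjusted p = 0.171, 0.0613 and 0.1).

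The counts of Robo4 at D8 were assigned to other transcripts than at D0. Of 6 annotated Robo4 transcripts, Robo4-205 and Robo4-206 held 8.75% and 10.4% of the gene's estimated counts in WT at D0, 100% in both libraries of WT D8 (397 and 289 counts) and 95.6% and 100% in TKO D8. In TKO at D6, where Robo3 had 6899 and 7408 counts, they held all 91 and 89 counts of Robo4. Robo3 and Robo4 lie tail to tail on chromosome 9, Robo3 on the minus strand at chr9:37415669-37433246 and Robo4 on the plus strand at chr9:37401897-37415115 (GRCm38, GENCODE M21), 554 bases apart. The libraries were made with a stranded kit, and whether the counting used strand is not given in the sources used here, so reads of the neighbouring genes may not have been kept apart. Of Robo3 itself, Robo3-202, the coding transcript that carried nearly all coding counts, had 7538 and 7097 estimated counts in WT at D8, and 4 transcripts annotated as retaining an intron or as targets of nonsense-mediated decay held the other 56.9% and 54.1%. Those 4 held 69.0% and 68.5% in WT at D6 and 52.3% and 53.6% in TKO at D8. These transcripts were picked after their values were seen.

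**Figure D3:**
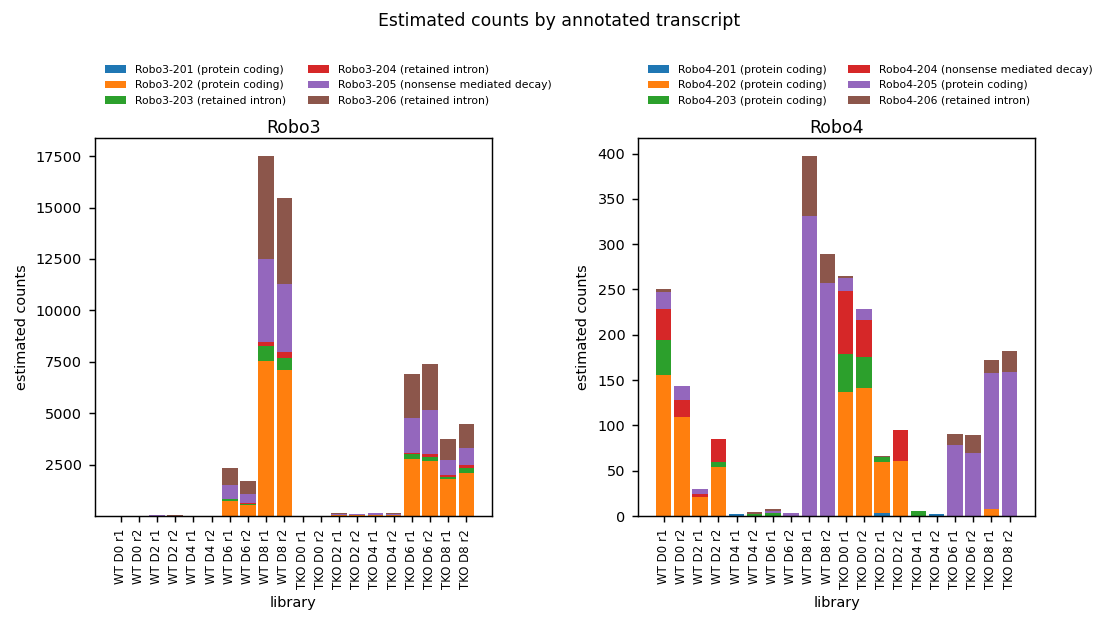
Estimated counts (vertical axis, linear from 0) of Robo3 and Robo4 in each of the 20 libraries (horizontal axis), stacked by annotated transcript. Robo3-202 and the 4 transcripts that retain an intron or are decay targets rise together at D6 and D8, and the Robo4 bars at D8 consist of Robo4-205 and Robo4-206 alone in WT, with 397 and 289 counts.

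Netrin ligands are secreted relatives of laminin. Ntn1 (chr11:68209364-68400823, minus strand, GRCm38), the attractant of commissural axons and by far the most abundant netrin, had 119 and 142 CPM in WT at D0 and 268 and 284 at D8 (log2 change 1.08 ± 0.093, adjusted p = 6.05e-09). TKO was lower on each day from D2, with 145 and 166 CPM against 236 and 227 at D6 (-0.57) and 84.9 and 74.3 at D8 (log2 change -1.80 ± 0.096, adjusted p = 2.38e-11). In TKO its level at D8 lay below that at D0 (log2 change -0.83 ± 0.095, adjusted p = 5.05e-07). Ntn4 had 24.7 and 22.1 CPM in WT and 5.56 and 7.69 in TKO at D8 (log2 change -1.82 ± 0.18, adjusted p = 6.32e-08), and Ntn3 10.7 and 9.97 against 6.15 and 6.62 (log2 change -0.70 ± 0.13, adjusted p = 0.000133). Ntn3 had been higher in TKO at D2 (1.2) and D4 (0.91). Ntn5, which shares 20.5% of its 31-base sequences with other genes, fell in WT from 111 counts over the 2 D0 libraries to 2 at D8. TKO had 17 counts at D8, 8.38 times the WT share of counts, with a 95% counting interval from 1.99 to 74.8, and the call did not pass without WT D8 replicate 2 (adjusted p = 0.053).

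Among the netrin receptors Dcc and Unc5b changed in opposite ways. Dcc, the attractive receptor of commissural axons, had 0 and 5 counts in the WT libraries at D0, 35.1 and 27.4 CPM at D6 and 157 and 150.1 at D8 (log2 change 10.83 ± 0.29, adjusted p = 4.79e-16). TKO had 32.0 and 40.8 CPM at D6, where the test found no difference from WT, and 40.2 and 42.8 at D8 (log2 change -1.89 ± 0.13, adjusted p = 9.33e-10). Unc5b (chr10:60762593-60831581, minus strand, GRCm38), a repellent receptor that is also used in vessels, had 18.8 and 19.8 CPM in WT and 9.33 and 10.1 in TKO at D0 (log2 change -0.99 ± 0.11, adjusted p = 1.61e-06). It was lower in TKO at D2 as well (-0.64), and higher at D6 (17.9 and 14.8 against 4.51 and 5.23 CPM, log2 change 1.75 ± 0.12, adjusted p = 3.05e-09) and D8 (65.4 and 64.3 against 9.70 and 11.1 CPM, log2 change 2.64 ± 0.10, adjusted p = 4.62e-13). The remaining receptors were lower in TKO at D8. Unc5a had 20 and 19.5 CPM in WT and 3.84 and 3.61 in TKO (log2 change -2.40 ± 0.14, adjusted p = 4.79e-11), Unc5d 24.3 and 25.5 against 4.19 and 5.51 (log2 change -2.35 ± 0.18, adjusted p = 3.46e-09), and Unc5c 19.4 and 21.2 against 5.94 and 7.44 (log2 change -1.60 ± 0.21, adjusted p = 2.77e-06). Unc5c had been higher in TKO at D4 (1.38) and D6 (1.24).

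**Figure D4:**
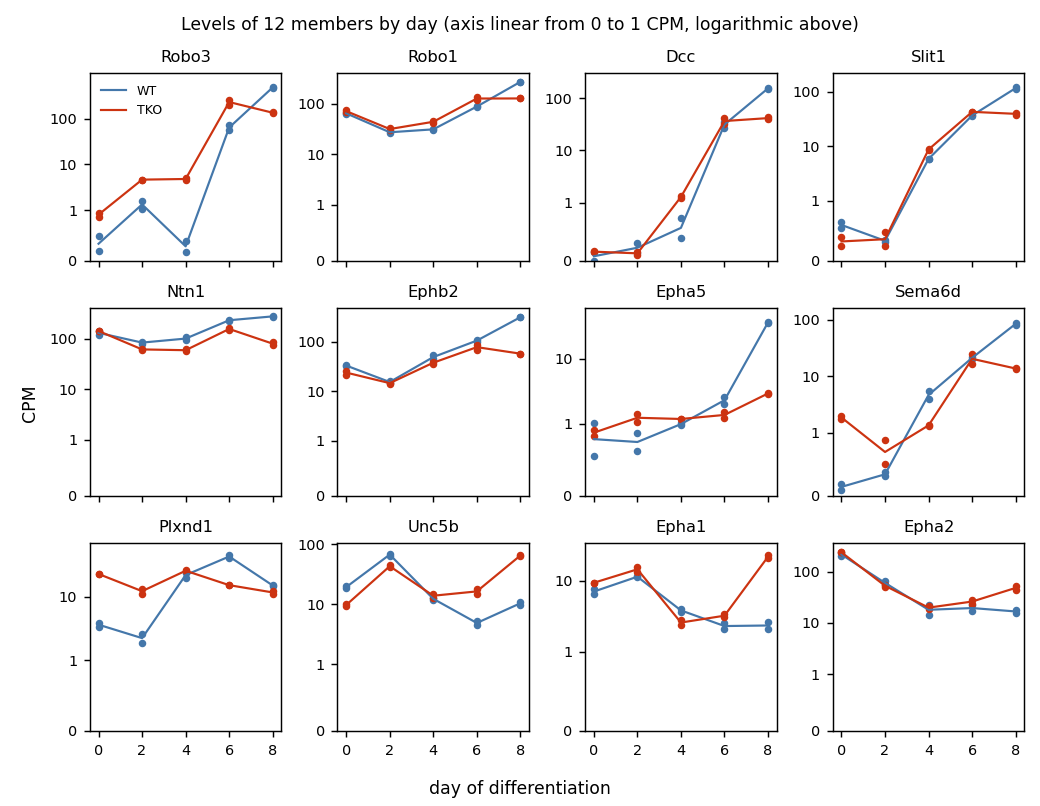
Level in CPM (vertical axis, linear from 0 to 1 and logarithmic above) by day (horizontal axis) of 12 members picked after their values were seen, with a point for each library and a line through the group means, WT in blue and TKO in red. The lines of Robo3, Robo1 and Slit1 cross between D6 and D8, Plxnd1 starts higher in TKO, and Unc5b, Epha1 and Epha2 end higher in TKO.

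Some members changed the direction of their difference between days. With at least 5 CPM in a group, 31 members had TKO against WT calls in both directions on different days (45.6% of those tested, beside 19.7% of all genes), and 16 of them were higher in TKO on at least 1 day before D8 and lower only at D8 (23.5%, beside 5.15% of all genes). These 16 were Efna3, Epha3, Epha10, Nrp1, Nrp2, Ntn3, Plxna1, Plxna2, Robo1, Robo3, Sema4c, Sema5a, Sema6b, Sema6c, Sema7a and Slit1. They came from 7 of the 8 roles, with none among the netrin receptors. Of these receptors Unc5c was higher in TKO at D4 and D6 and lower at D8, but its earlier calls did not meet the level of 5 CPM. The days were not the same for all. Nrp2, Plxna1, Sema4c, Sema5a, Sema6b and Sema7a were already higher in TKO at D0, and Epha3, Epha10, Nrp1, Robo3 and Sema6c met the level of 5 CPM with a higher call only at D6.

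In stem cells the guidance genes with the largest differences were mostly scarce. Below 5 CPM in both genotypes, Sema6d had 0.191 and 0.0975 CPM in WT and 1.99 and 1.76 in TKO at D0 (log2 change 3.66 ± 0.46, adjusted p = 7.14e-06). Ntn4 had 0.191 and 0.260 CPM in WT and 1.99 and 1.76 in TKO (log2 change 3.03 ± 0.37, adjusted p = 5.37e-06). On the other side, Epha8 had 1.47 and 1.43 CPM in WT and 0.174 and 0.293 in TKO (log2 change -2.62 ± 0.33, adjusted p = 7.58e-06), Epha10 1.05 and 1.17 against 0.139 and 0.220 (-2.61), and Ntn5 2.17 and 1.40 against 0.522 and 0.256 (-2.18). The groups did not overlap for any of these 5. They lie outside the rule for members given in full, which asks for 5 CPM, and were added after their values were seen. At D0 all 13 endoderm markers were higher in TKO, with sums of 213 and 266 CPM in WT and 2213 and 2423 in TKO and with Ttr and Afp at 0 in WT, while the pluripotency markers summed to 7528 and 7350 CPM in WT and 7018 and 6873 in TKO. The part of endoderm-like cells in the D0 values was not tested.

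The sequences before the start sites of members with large D0 differences are shown, since they differ widely in CG content, the dinucleotide that vertebrate DNA methyltransferases act on. Of the 69 members 59 had a RefSeq promoter window (GRCm38.p6, 250 bases before to 50 after the start), and 55 of these windows began within 1000 bases of the start of the most abundant coding transcript. The 3 members highest and the 3 lowest in TKO at D0 among those called whose 250 bases hold no annotated exon are given, followed by Robo3, cut to the 179 bases before its annotated transcript. They were picked after the D0 values were seen. Each is written 5′ to 3′ with every CG in capitals, and positions are those of GRCm38. Higher in TKO at D0 were Ntn4 at chr10:93640799-93641048 (plus strand), Robo2 at chr16:74411826-74412075 (minus strand) and Plxnd1 at chr6:115995006-115995255 (minus strand). Lower were Epha8 at chr4:136956817-136957066 (minus strand), Ntn5 at chr7:45683772-45684021 (plus strand) and Unc5b at chr10:60831582-60831831 (minus strand). Robo3 is at chr9:37433247-37433425 (minus strand). The Robo2 and Ntn5 windows start 291 and 394 bases from the start of the most abundant coding transcript.
Ntn4: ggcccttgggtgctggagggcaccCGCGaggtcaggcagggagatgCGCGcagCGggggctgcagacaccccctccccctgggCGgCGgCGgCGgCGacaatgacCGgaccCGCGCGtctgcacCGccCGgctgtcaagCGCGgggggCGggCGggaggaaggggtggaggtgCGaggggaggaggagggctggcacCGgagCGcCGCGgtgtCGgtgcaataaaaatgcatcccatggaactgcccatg
Robo2: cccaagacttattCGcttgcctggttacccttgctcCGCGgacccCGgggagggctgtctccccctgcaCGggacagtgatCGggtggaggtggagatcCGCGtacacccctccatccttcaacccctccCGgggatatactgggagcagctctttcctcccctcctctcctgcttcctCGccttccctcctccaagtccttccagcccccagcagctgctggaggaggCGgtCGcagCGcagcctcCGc
Plxnd1: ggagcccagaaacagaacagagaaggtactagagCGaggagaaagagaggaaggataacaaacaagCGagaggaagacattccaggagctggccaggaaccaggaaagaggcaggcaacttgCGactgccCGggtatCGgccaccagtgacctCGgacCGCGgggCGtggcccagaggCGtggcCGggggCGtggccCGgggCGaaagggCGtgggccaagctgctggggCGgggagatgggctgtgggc
Epha8: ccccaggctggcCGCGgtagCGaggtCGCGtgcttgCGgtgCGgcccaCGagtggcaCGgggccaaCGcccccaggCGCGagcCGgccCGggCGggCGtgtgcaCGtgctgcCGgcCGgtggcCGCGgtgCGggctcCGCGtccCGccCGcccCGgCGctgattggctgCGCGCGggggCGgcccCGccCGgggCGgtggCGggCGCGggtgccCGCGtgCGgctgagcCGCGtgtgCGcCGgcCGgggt
Ntn5: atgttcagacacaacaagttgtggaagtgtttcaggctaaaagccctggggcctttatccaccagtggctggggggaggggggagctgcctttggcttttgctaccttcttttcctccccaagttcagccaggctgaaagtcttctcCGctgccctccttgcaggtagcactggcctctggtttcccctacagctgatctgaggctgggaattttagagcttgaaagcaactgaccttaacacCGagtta
Unc5b: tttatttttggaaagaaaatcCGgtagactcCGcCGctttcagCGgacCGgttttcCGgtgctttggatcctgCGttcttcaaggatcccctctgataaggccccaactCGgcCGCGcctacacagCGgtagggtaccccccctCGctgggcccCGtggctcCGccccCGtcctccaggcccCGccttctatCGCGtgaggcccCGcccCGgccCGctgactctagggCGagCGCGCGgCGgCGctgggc
Robo3: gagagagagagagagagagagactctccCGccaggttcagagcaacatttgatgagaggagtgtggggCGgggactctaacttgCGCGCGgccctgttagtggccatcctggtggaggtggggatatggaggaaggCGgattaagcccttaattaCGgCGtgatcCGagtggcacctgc

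Printed bases held 26 CG for Ntn4, 14 for Robo2 and 16 for Plxnd1, which were higher in TKO, and 46 for Epha8, 2 for Ntn5 and 27 for Unc5b, which were lower. CG-rich and CG-poor starts thus occurred on the lower side, and no order with the direction at D0 is read from 6 genes. Over all 59 windows of 300 bases the median was 22 CG, against 7 in the 32851 windows of the whole table, and 62.7% had an observed over expected CG ratio of at least 0.6, against 35.8%. The letters CANNTG, the E-box of basic helix-loop-helix factors, form the same pattern on both strands and were found in 50.8% of the members' windows and in 72.3% of all windows. A match is only a match of letters in this window.

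Between D6 and D8 the genotypes parted. In WT 44 members were called higher at D8 than at D6 and 9 lower (57% of all genes called, 26.6% higher and 30.4% lower), and in TKO 12 were higher and 28 lower (50% of all genes called, 25.5% higher and 24.5% lower). The WT calls kept their leaning when a change of at least 2-fold was asked for (31 higher and 3 lower), whereas those of TKO then were 7 higher and 4 lower, so most of the decreases in TKO were small. The interaction, which tests the difference between the 2 changes, passed for 56 members, 48 with the lower change in TKO and 8 with the higher (49.9% of all genes called, 24.4% with the lower change and 25.5% with the higher). For 15 members the changes were called in opposite directions, up in WT and down in TKO for 14 of them (20.6% of members and 5.7% of all genes), and the reverse for Sema4d (1.47% and 8.51%). In both directions together the shares were 22.1% of members and 14.2% of all genes.

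Of the 15 members that changed in opposite directions, Robo3 had the largest interaction (-3.68). Over all members those of Robo4 (-4.80, at 8 and 3 counts in WT at D6) and Epha3 (-4.455) were larger. From D6 to D8 Robo3 went from 70.9 and 57.0 to 498 and 464 CPM in WT (log2 change 2.91 ± 0.12, adjusted p = 7.72e-12) and from 199.9 and 259.9 to 132 and 137 in TKO (log2 change -0.77 ± 0.12, adjusted p = 2.56e-05). Sema3d went from 6.54 and 5.72 to 23.8 and 25.0 CPM in WT (1.99) and from 3.65 and 6.35 to 2.55 and 2.27 in TKO (-1.04). Ephb2 went from 101 and 112 to 316 and 316 CPM in WT (1.57) and from 70.2 and 86.9 to 57.7 and 58.4 in TKO (-0.43). Others rose in WT and did not pass in TKO, among them Dcc with 2.29 in WT and 0.19 (adjusted p = 0.264) in TKO, Slit1 with 1.67 and -0.12 (adjusted p = 0.237), and Robo1 with 1.62 and 0.01 (adjusted p = 0.96). The interaction passed for each of these 3 (Dcc -2.10, Slit1 -1.79, Robo1 -1.62). Epha1 was the reverse case, with 2.54 and 2.08 CPM at D6 and 2.62 and 2.10 at D8 in WT, and 3.07 and 3.40 at D6 and 20.7 and 23.1 at D8 in TKO (interaction: log2 change 2.73 ± 0.23, adjusted p = 2.88e-08). Unc5b rose in both genotypes, by 1.09 in WT and 1.98 in TKO. The summed neuron markers moved in the same direction as Robo3 in both genotypes, in WT from 1114 and 1011 CPM at D6 to 5525 and 5612 at D8, and in TKO from 1965 and 2593 to 1541 and 1513, with 14 of 14 higher in WT, 8 of 14 lower in TKO and none at 0. Their part was not tested.

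**Figure D5:**
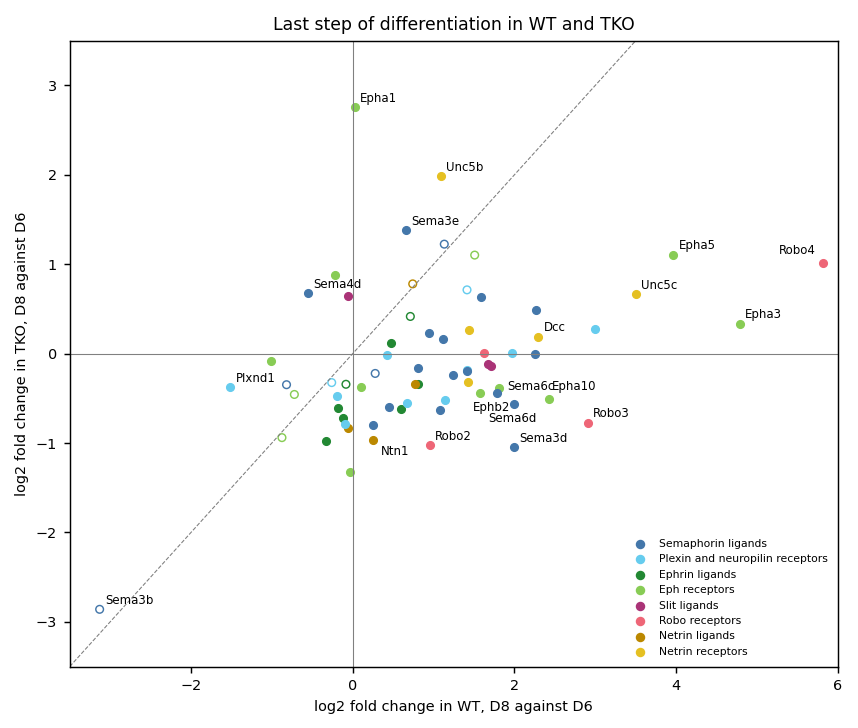
Log2 fold change from D6 to D8 in WT (horizontal axis) and in TKO (vertical axis) for the 68 tested members, coloured by role and filled where the interaction passed, with the dashed line where both are equal. Most points lie below the line, Robo3, Sema3d and Robo2 to the right of and below 0, and Epha1 and Unc5b above the line.

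Over the whole span from D0 to D8 more members moved the same way in both genotypes. Members were higher at D8 than at D0 in both genotypes for 43 (63.2%, beside 25.9% of all genes) and lower in both for 6 (8.82%, beside 24.8% of all genes). The interaction passed for 54 with 45 changes lower in TKO and 9 higher (52.3% of all genes called, 22.9% lower and 29.3% higher), and 7 members changed in opposite directions (10.3%, beside 4.92% of all genes). Epha4, Ntn1, Plxnd1 and Sema7a rose in WT and fell in TKO. Epha1, Sema3e and Unc5b fell in WT and rose in TKO. Plxnd1 went from 3.86 and 3.38 to 14.7 and 15.2 CPM in WT (log2 change 2.04 ± 0.14, adjusted p = 1.85e-10) and from 23.0 and 22.3 to 10.9 and 12.3 in TKO (log2 change -0.96 ± 0.12, adjusted p = 1.36e-06), with most of its difference present at D0. Unc5b went from 18.8 and 19.8 to 9.70 and 11.1 CPM in WT (log2 change -0.89 ± 0.11, adjusted p = 4.65e-07) and from 9.33 and 10.1 to 65.4 and 64.3 in TKO (log2 change 2.74 ± 0.11, adjusted p = 2.74e-13).

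Per length, a scale on which genes can be compared, the order of the members changed with the day. In WT at D0 the highest were Epha2 at 81.1 ± 11 TPM (SD, n = 2), Sema4b at 46.5 ± 0.453 and Ntn1 at 33.4 ± 5.57, and of the 4 genes below Ntn1 (Ephb4, Epha4, Plxna1 and Plxnb2) each overlapped the one above it. At D2 and D4 Efnb2 led in both genotypes. In WT at D8 Robo3 led with 274 ± 7.26 TPM, followed by Sema5b at 123 ± 7.09, and Plxna1 and Ntn1 overlapped their neighbours. The Robo3 value includes 4 transcripts that retain an intron or are decay targets, with 56.9% and 54.1% of its counts. The coding transcript of Robo3 was not ranked alone. In TKO at D8 Plxna1 led with 71.5 ± 1.26 TPM and Robo3 came next with 62.8 ± 7.37, without overlap between them. Summed by role at D8, semaphorin ligands gave 540.5 TPM in WT and 198 in TKO, plexin and neuropilin receptors 459 and 215, ephrins 308 and 133, Eph receptors 334 and 132, Slits 115 and 39.9, Robo receptors 404.5 and 102, netrins 133 and 31.7, and netrin receptors 59.2 and 29.0. The TKO sum was below the WT sum in every role at D8.

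At D8 the genotypes also differed in how Sema6d counts were assigned to transcripts with different starts. Sema6d-208, whose start lies 520604 bases upstream of that of Sema6d-206, the most abundant coding transcript, held 23.2% and 24.4% of the Sema6d counts in WT at D8 and 6.54% and 10.6% in TKO at D8. These shares rest on 661 and 706 estimated counts in WT and 24.7 and 48.9 in TKO. A low share was not particular to TKO. In WT it was 5.00% and 7.84% at D6 and 0% in both libraries at D4, so that it also changed with the day within WT. In TKO at D6 the same share was 21.6% in replicate 1 and 0% in replicate 2, so that the estimate moves widely between libraries at lower counts. Both transcripts of this paragraph were chosen after their values were seen. For Sema5a, the long coding transcript Sema5a-201 held 93.4% and 93.8% of the counts in WT at D8 and 82.7% and 86.1% in TKO.

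Partner genes that act with or below these ligands and receptors, a list of 71 written from general knowledge, also had more lower than higher calls at D8. All 71 were tested, and 49 were lower in TKO at D8 and 8 higher (67.5% of all genes called, 31.8% lower and 35.8% higher). Lrrc4c, a netrin-G ligand receptor, had the lowest fitted value (-4.94), at 1.48 and 1.77 CPM in WT and 0.0350 and 0.0613 in TKO. Its mean was 0 CPM in WT at D0 and D4 and 0.0151 at D6. The size of its change thus rests on the WT D8 libraries and a few counts in TKO, and is uncertain. Ntng1, its netrin-G partner, stood at 14.7 and 15.8 against 1.33 and 1.78 CPM (log2 change -3.29 ± 0.26, adjusted p = 8.21e-09). Gap43, a growth cone protein, stood at 257 and 258 against 44.0 and 44.5 (log2 change -2.54 ± 0.14, adjusted p = 4.21e-11). Next came Dpysl4, a relative of the semaphorin mediator CRMP2 (-2.42), Cdk5r1, the activator of Cdk5 (-2.28), and Cntn2, an axonal adhesion molecule (-2.14). Gap43 also belongs to the neuron marker list. On earlier days the list gave 19 higher and 14 lower at D0, 24 and 6 at D2, 14 and 11 at D4 and 19 and 25 at D6 (of all genes 19.4% and 19.9%, 18.4% and 16.9%, 15.1% and 13.2%, and 20.9% and 20.3%), and its D0 count of 33 was 18 in a fit of the D0 groups alone. From D0 to D8 it gave 55 higher and 9 lower in WT and 52 and 10 in TKO (of all genes 37.8% and 39%, and 34.2% and 30.8%), and from D6 to D8 36 and 18 in WT and 7 and 33 in TKO (26.6% and 30.4%, and 25.5% and 24.5%).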

How the data were processed

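RNA-seq of 20 libraries from the ES-E14TG2a line was analysed, in 10 groups of genotype and day taken from the labels. The authors trimmed reads with Trim Galore 0.6.2 and quantified transcripts with kallisto on GRCm38, per the submitters' processing notes. The kallisto version, the strand setting and the transcript annotation are not given in the sources used here. Each deposited table lists estimated counts, TPM and lengths in bases for 119414 transcripts, per the file headers. TPM is scaled by the authors to 1e+06 per library.

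Of the transcripts 116728 matched GENCODE M21 by identifier (116161 with the same version), and the 2686 others, with 0.943% to 1.099% of counts, were left out. The estimated counts of a gene's transcripts were added up, then rounded to a whole count. All 20 libraries entered 1 fit in edgeR 4.0.16 (R 4.3.3) with TMM scaling, a low-count filter that kept 18555 genes, and the quasi-likelihood test with Benjamini-Hochberg adjustment over all genes tested. The SE of a log2 change was derived from it and its F statistic. The biological coefficient of variation was 0.069, with 10 residual degrees of freedom. Totals of 26015282 to 38074768 leave genes of a few counts with wide intervals, which cover counting error only. The fit was tested on simulated counts first.

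Members, roles, the list of 71 partner genes and the cell type markers were chosen with earlier results of these data known. Members given in full were up to 3 per role with the largest passing change, at least 5 CPM and no overlap of groups (TKO against WT at D8 and at D0, WT D8 against D0), the 2 highest per role in TPM, and those called in both directions on different days. Other members follow by value where named. Promoter windows and their sequences are those of RefSeq for GRCm38.p6. Alternatives were DESeq2 1.42.0, other scaling, filters and thresholds, length-scaled TPM, a replicate block, the compared groups alone and single libraries left out. Same-numbered libraries did not deviate together (45 correlations from -0.0775 to 0.101, median 0.01), so replicate numbers were not used to pair samples.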

Additional observations from a re-analysis of the deposited data

Results flagged for a closer look

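The change from D0 to D8 differed between TKO and WT for 54 members by the interaction test of edgeR (adjusted p under 0.05), and for 7 of them the 2 genotypes changed in opposite directions (10.3% of members tested, beside 4.92% of all genes). The interaction, on the log2 scale with negative values for a lower change in TKO, was -3.07 for Sema7a, -3.0 for Plxnd1, -1.92 for Ntn1 and -1.84 for Epha4, which rose in WT and fell in TKO. It was 3.63 for Unc5b, 2.80 for Epha1 and 1.91 for Sema3e, which fell in WT and rose in TKO. Plxnd1 and Sema7a were already higher in TKO at D0, and Unc5b and Sema3e lower.

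The change from D6 to D8 differed for 56 members, and 15 of them changed in opposite directions (22.1%, beside 14.2% of all genes). Those that rose in WT and fell in TKO were Robo3 (-3.68), Sema3d (-3.03), Epha10 (-2.93), Sema6d (-2.55), Sema6c (-2.22), Ephb1 (-2.19), Ephb2 (-2.00), Robo2 (-1.98), Plxna2 (-1.67), Ntn1 (-1.22), Plxna3 (-1.22), Efna2 (-1.21), Sema5b (-1.05) and Sema4f (-1.04). Sema4d fell in WT and rose in TKO (1.23). The 2 interactions share the D8 libraries. Groups of 2 libraries were not tested for a library that stands apart.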

How the results depend on the processing

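Counts of members called in the 17 comparisons kept within 1.5 times of the values given under RLE scaling, DESeq2, no low-count filter and protein-coding genes alone, and in the fit without D8 libraries for the 10 comparisons that use none. The last 2 settings were added after seeing the data. The replicate block changed no count by more than that, with 40 members at D0 in place of 39 and 34 at D2 in place of 36 for TKO against WT. At D4 the count of 34 became 20 with length-scaled TPM and 22 at an adjusted p under 0.01. Partner genes at D0 became 18 in a fit of the compared groups alone.

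A change of at least 2-fold left 18, 12, 9 and 12 members for TKO against WT at D0, D2, D4 and D6, 32 for WT and 28 for TKO at D2 against D0, and 34 for WT and 11 for TKO at D8 against D6. For partner genes it left 9, 10, 6, 11 and 29 for TKO against WT from D0 to D8, 25, 36 and 43 for WT D2, D4 and D6 against D0, 21 and 30 for TKO D2 and D4 against D0, 28 for WT and 10 for TKO at D8 against D6, and 28 and 29 for the interactions with D8 against D0 and D6.

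With a library left out, members called for TKO against WT ran from 28 to 36 at D0, 25 to 32 at D2, 21 to 25 at D4 (21 without either TKO library), 30 to 36 at D6 and 56 to 57 at D8.

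For single members in TKO against WT at D0 and D8 and WT at D8 against D0, 159 values lost and 21 gained a call, 2531 stayed on the same side of the threshold, called or not, and Sema5a in TKO against WT at D8 turned to 0.04 (adjusted p = 0.89) with length-scaled TPM, which weights its transcripts by length. The cause of these changes, that of Sema5a included, was not tested. Divided by effective length, CPM put the same member first as TPM at D0, D2, D4 and D8 in both genotypes. In the 250 upstream bases alone CANNTG was in 49.2% of members' windows and 66.2% of all. Depth limits Epha6, Ntn5, Plxnb3 and Sema3g, and D0 values of Dcc, Robo2 and Ephb1, all at few counts.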
